A study of Mus musculus with 12 samples.

Results

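The collagen, laminin and nidogen genes, together with Fn1 (fibronectin) and Sparc (osteonectin), were described in bone marrow-derived dendritic cells (BMDCs) of the mouse. A gene belonged to the group if its symbol was a collagen chain gene (Col, a number, a, a number), a laminin chain gene (Lama, Lamb or Lamc and a number), Nid1, Nid2, Fn1 or Sparc. Of 55335 genes in the deposited files, 59 met this rule, and 25 of them had a mean of at least 10 expected counts in at least 1 group. Bone marrow came from C57BL/6 mice of both sexes aged 8 to 12 weeks, which carried CreER, a tamoxifen-inducible Cre at the Rosa26 locus, with unmodified Ctcf (WT) or with loxP-flanked Ctcf (CreER;CTCF fl/fl, KO). The marrow was cultured for 6 days with GM-CSF, a cytokine that drives precursors into monocyte-derived dendritic cells. Per the study's methods, the non-adherent cells were collected and those with CD11c on their surface were enriched on magnetic beads before stimulation. Cells were then left unstimulated (WT, KO) or exposed to LPS, a bacterial cell wall component, at 100 ng/ml for 3 h (WTL, KOL), with 3 biological replicates in each of the 4 groups. 4-hydroxytamoxifen (4-OHT) was added on the first day to delete Ctcf, and whether the WT cultures received it was not clear, so 4-OHT and loss of CTCF cannot be told apart. Total expected counts were 12769773 to 16586334 per library.

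Collagens are trimers of 3 chains, which may be alike or come from different genes, and fibrillar collagens form the fibres of connective tissue. Collagen IV, laminins and nidogens build the basement membrane, the thin sheet under epithelium and around vessels: laminin trimers of an α, a β and a γ chain form one network, collagen IV another, and nidogens bridge both. Fibronectin is a soluble and matrix glycoprotein that macrophages and related cells secrete in quantity, whereas most collagens are typical of fibroblasts, cartilage cells, epithelium or endothelium.

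The targeted gene, Ctcf, had 975 to 1051 normalized counts in WT, 745 to 886 in WTL, 516 to 570 in KO and 526 to 563 in KOL libraries. A normalized count is the expected count divided by the library's effective size and multiplied by the mean size of the 12 libraries. The defining leukocyte and dendritic cell transcripts Ptprc, Itgax, H2-Aa and Cd74 were abundant in all libraries, and the 13 genes of that list summed to 14982 to 15777 TPM in WT, 14115 to 18496 in WTL, 10516 to 10870 in KO and 14064 to 18852 in KOL. The KO libraries were the lowest, with 5 of the 13 genes called lower in KO than in WT (H2-Aa, H2-Ab1, H2-Eb1, Ccr7 and Flt3) and 2 higher (Ptprc and Itgax). Over all genes 17.2% were called lower and 17.3% higher, and the 2 higher were near that share. All 11 macrophage and monocyte markers exceeded 3 counts, with sums of 1238 to 1334 TPM in WT, 1124 to 1308 in WTL, 1401 to 1449 in KO and 1217 to 1383 in KOL. Of them 4 were called higher and 4 lower in KO than in WT (17.3% and 17.2% of all genes). Csf1r had 14687 to 17446 counts in WT, 5255 to 5592 in WTL, 24224 to 26044 in KO and 4626 to 6151 in KOL. The defining fibroblast transcripts Dcn, Lum, Dpt and Mfap5 had at most 4 counts in any library, yet 11 of the 15 genes of the fibroblast and stroma list exceeded 3 counts somewhere. That list summed to 3.43 to 5.23 TPM in WT, 8.56 to 11.2 in WTL, 7.30 to 8.87 in KO and 6.93 to 11.6 in KOL, and 6 of 9 endothelial markers exceeded 3 counts, with sums of 1.36 to 1.93, 6.25 to 7.76, 17.4 to 21.5 and 17.2 to 22.8 TPM. In the fibroblast and stroma list, Pdgfrb was called higher in KO (27 to 37 counts in WT, 255 to 281 in KO), and Pdgfrb (124 to 182 in WTL), Fap (11 to 15 in WT, 68 to 84 in WTL), Pdgfra (6 to 8, 12 to 36) and Thy1 (8 to 11, 11 to 21) with LPS in WT. These were 1 and 4 of the 7 genes tested (17.3% and 12.6% of all genes), and the 1 was near the share over all genes. Of the 7 genes of that list tested, 3 were called higher with LPS in CTCF-deficient cells (15.1% of all genes), among them Fap (5 to 10 counts in KO, 50 to 61 in KOL). In KOL against WTL, 0 of the 7 were called higher and 2 lower (12.5% and 12.5% of all genes). In the endothelial list, Egfl7 (0 to 2 counts in WT, 133 to 178 in KO), Tie1 (3 to 6, 22 to 33) and Kdr (8 to 20, 20 to 40) were called higher and Pecam1 (33 to 35, 5 to 11) lower in KO. Kdr (364 to 432 counts in WTL) and Cdh5 (4 to 8 in WT, 11 to 14 in WTL) were called higher with LPS in WT, and Tek, Emcn and Cldn5 had at most 1 count. Of the 5 endothelial genes tested, 3 were called higher and 1 lower in KO than in WT (17.3% and 17.2% of all genes). The 1 lower was near that share. In KOL against WTL 3 were higher and 1 lower (12.5% and 12.5%). With LPS 2 were higher in WT (12.6%) and 2 in CTCF-deficient cells (15.1%). The part of other cell types in the results was not tested, and in bulk RNA fewer cells of a type and less RNA per cell cannot be told apart. Among the other lists, 3 of 7 osteoblast, 7 of 7 megakaryocyte, 3 of 5 adipocyte and 9 of 10 granulocyte and mast cell markers exceeded 3 counts, with Alpl, Dmp1 and Lep at 0 throughout. Their sums were lower in KO than in WT. In WT they were 504 to 539, 220 to 225, 53.4 to 55.7 and 367 to 389 TPM, in the order named. In KO they were 137 to 140, 118 to 126, 25.9 to 28.4 and 194 to 228 TPM. Vwf (1274 to 1700 counts in WT, 2128 to 2250 in KO) and Gata2 (12 to 14, 84 to 93) went the other way. In counts, Spp1 and Runx2 made up nearly all of the osteoblast list and Fabp4 nearly all of the adipocyte list. Called higher and lower in KO were 0 and 2 of 2, 1 and 2 of 6, 0 and 1 of 1 and 1 and 4 of 5 genes tested. Over all genes the shares were 17.3% and 17.2%. With LPS only the osteoblast sums did not overlap between genotypes (453 to 573 in WTL, 262 to 321 in KOL).

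WTL replicate 2 stood apart from the other 11 libraries in its stromal collagen transcripts. Col1a1, a chain of the main fibre collagen of bone and skin, had 45 expected counts there, against 6 and 7 in the other WTL libraries, 0 in all WT libraries, and at most 9 elsewhere. Col1a2, its partner chain, had 39 counts in that library and at most 2 in any other. Col3a1 and Col5a2 had 24 counts each there and at most 7 and 2 elsewhere. Sparc, a collagen-binding glycoprotein, had 18 and at most 6, and Col6a1 had 14 and at most 3. In all, 9 members had over 3 counts in WTL replicate 2 and at least 3 times the count of every other library. The fibroblast transcription factor gene Prrx1 had 5 counts in that library and at most 1 in the others. No other gene of the fibroblast and stroma list stood apart there by that rule. Pdgfra (36 counts), Fap (84) and Thy1 (21) were highest there but reached 34, 73 and 17 elsewhere. Dcn (3), Cxcl12 (7), Postn (1) and Acta2 (16) were higher in another library. Col1a1 and Col1a2 met the rule of 10 counts only through this library, did not enter the fit, and are not compared further.

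**Figure D1:**
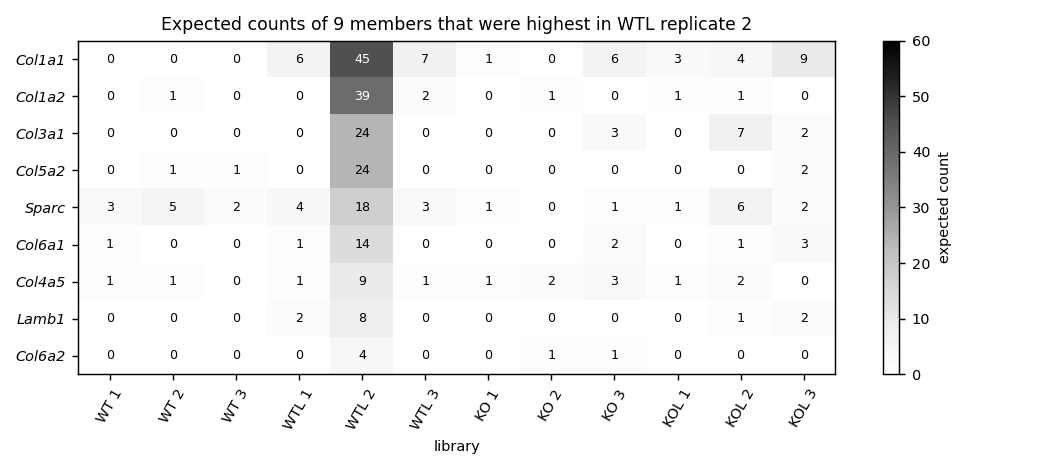
Expected counts (cell numbers and grey scale) of 9 members (rows) in each of the 12 libraries (columns). Counts are 4 to 45 in WTL replicate 2 and at most 9 in any other library.

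The members differed in level by orders of magnitude, and Fn1 alone made up most of the summed TPM. TPM is a level per transcript length, and the scale allows genes to be compared within a library. The length was assigned in each library and varied for some members, from 1465 to 11388 bases for Lama5 and from 489 to 5629 for Lamb2. TPM of members with few counts therefore also vary with this length. Fn1 had 426 ± 5.31 TPM in WT, 377 ± 35.0 in WTL, 294 ± 9.51 in KO and 123 ± 8.14 in KOL (SD, n = 3 for every mean with an SD in the text). It took 92.5 to 93.6% of the summed TPM of the 59 members in WT libraries, 85.4 to 87.3% in WTL, 84.5 to 85.2% in KO and 63.0 to 68.4% in KOL. The other 58 members summed to 29.5 to 33.8 TPM in WT, 57.9 to 60.4 in WTL, 49.4 to 55.7 in KO and 58.1 to 67.0 in KOL, so the WT libraries were the lowest and did not overlap with the others.

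The order behind Fn1 changed with genotype and LPS. In WT, Col15a1 (7.56 ± 1.13 TPM) and Lamc1 (7.52 ± 1.15) followed and did not differ beyond their spread, and Col27a1 (3.42 ± 0.416) and Lamb3 (3.31 ± 2.62) came next, with overlapping values. The place of Lamb3 rests on 35, 30 and 44 expected counts, with assigned lengths of 1200, 3415 and 797 bases and TPM of 3.19, 0.75 and 5.98. Col27a1 had 193, 215 and 205 counts. In WTL, Col5a3 (12.9 ± 2.04 TPM), Col15a1 (12.1 ± 1.80) and Col27a1 (11.9 ± 1.34) lay within each other's spread. In KO, Nid1 (15.9 ± 0.129 TPM) and Lamc1 (13.0 ± 0.687) were next to Fn1 and their libraries did not overlap. In KOL, Lamc1 (18.9 ± 2.09 TPM) was followed by Nid1 (9.02 ± 2.06), Lama5 (5.33 ± 1.84) and Col27a1 (4.73 ± 1.01), of which Lama5 and Col27a1 overlapped.

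**Figure D2:**
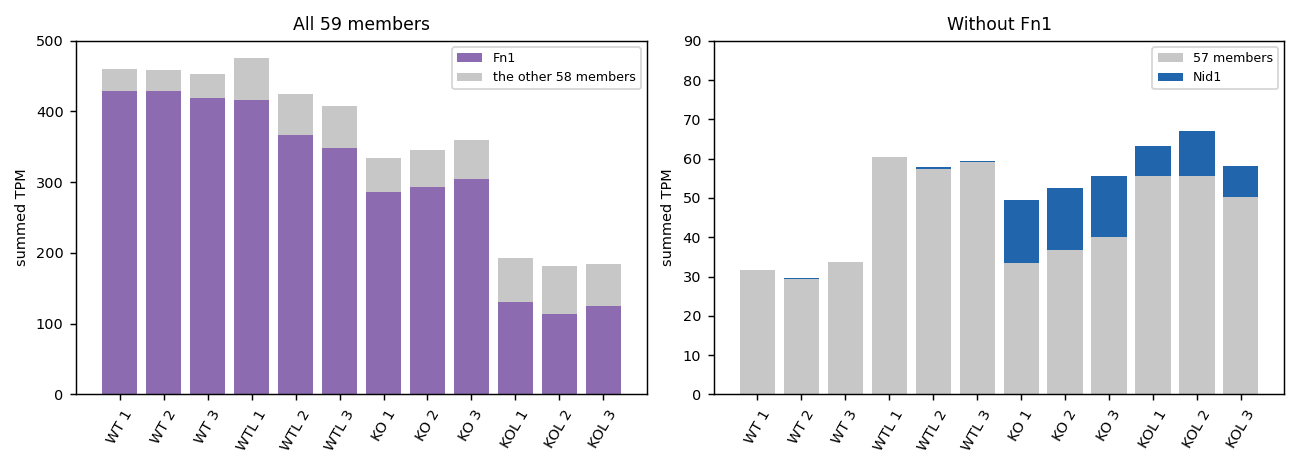
Summed TPM of the members in each library, divided into Fn1 and the other 58 members (left) and, without Fn1, into Nid1 and the other 57 (right). Fn1 falls from 420 to 429 TPM in WT to 114 to 130 TPM in KOL libraries, and Nid1 is visible mainly in KO and KOL.

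Of the 34 members outside the description, 5 (Col9a1, Col6a4, Lamc3, Col13a1 and Col22a1) had no count in any library and none exceeded 24 counts in any. Of the 25 described, 17 reached the mean of 10 counts in WT, 22 in WTL, 16 in KO and 19 in KOL, and 13 did so in all 4 groups. Described members included 6 of 11 laminin genes, both nidogens, 2 of 6 collagen IV genes and 7 of 11 fibrillar collagen genes. Tests were run on the 22 described members that passed the expression filter. A member could pass it through a single group in which it was high, so the counts of called members below are descriptions. A member was called changed when the adjusted p of edgeR's quasi-likelihood test was below 0.05 and its fold exceeded 1.3 (KO against WT), 1.5 (KOL against WTL) or 2 (LPS against no LPS).

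**Figure D3:**
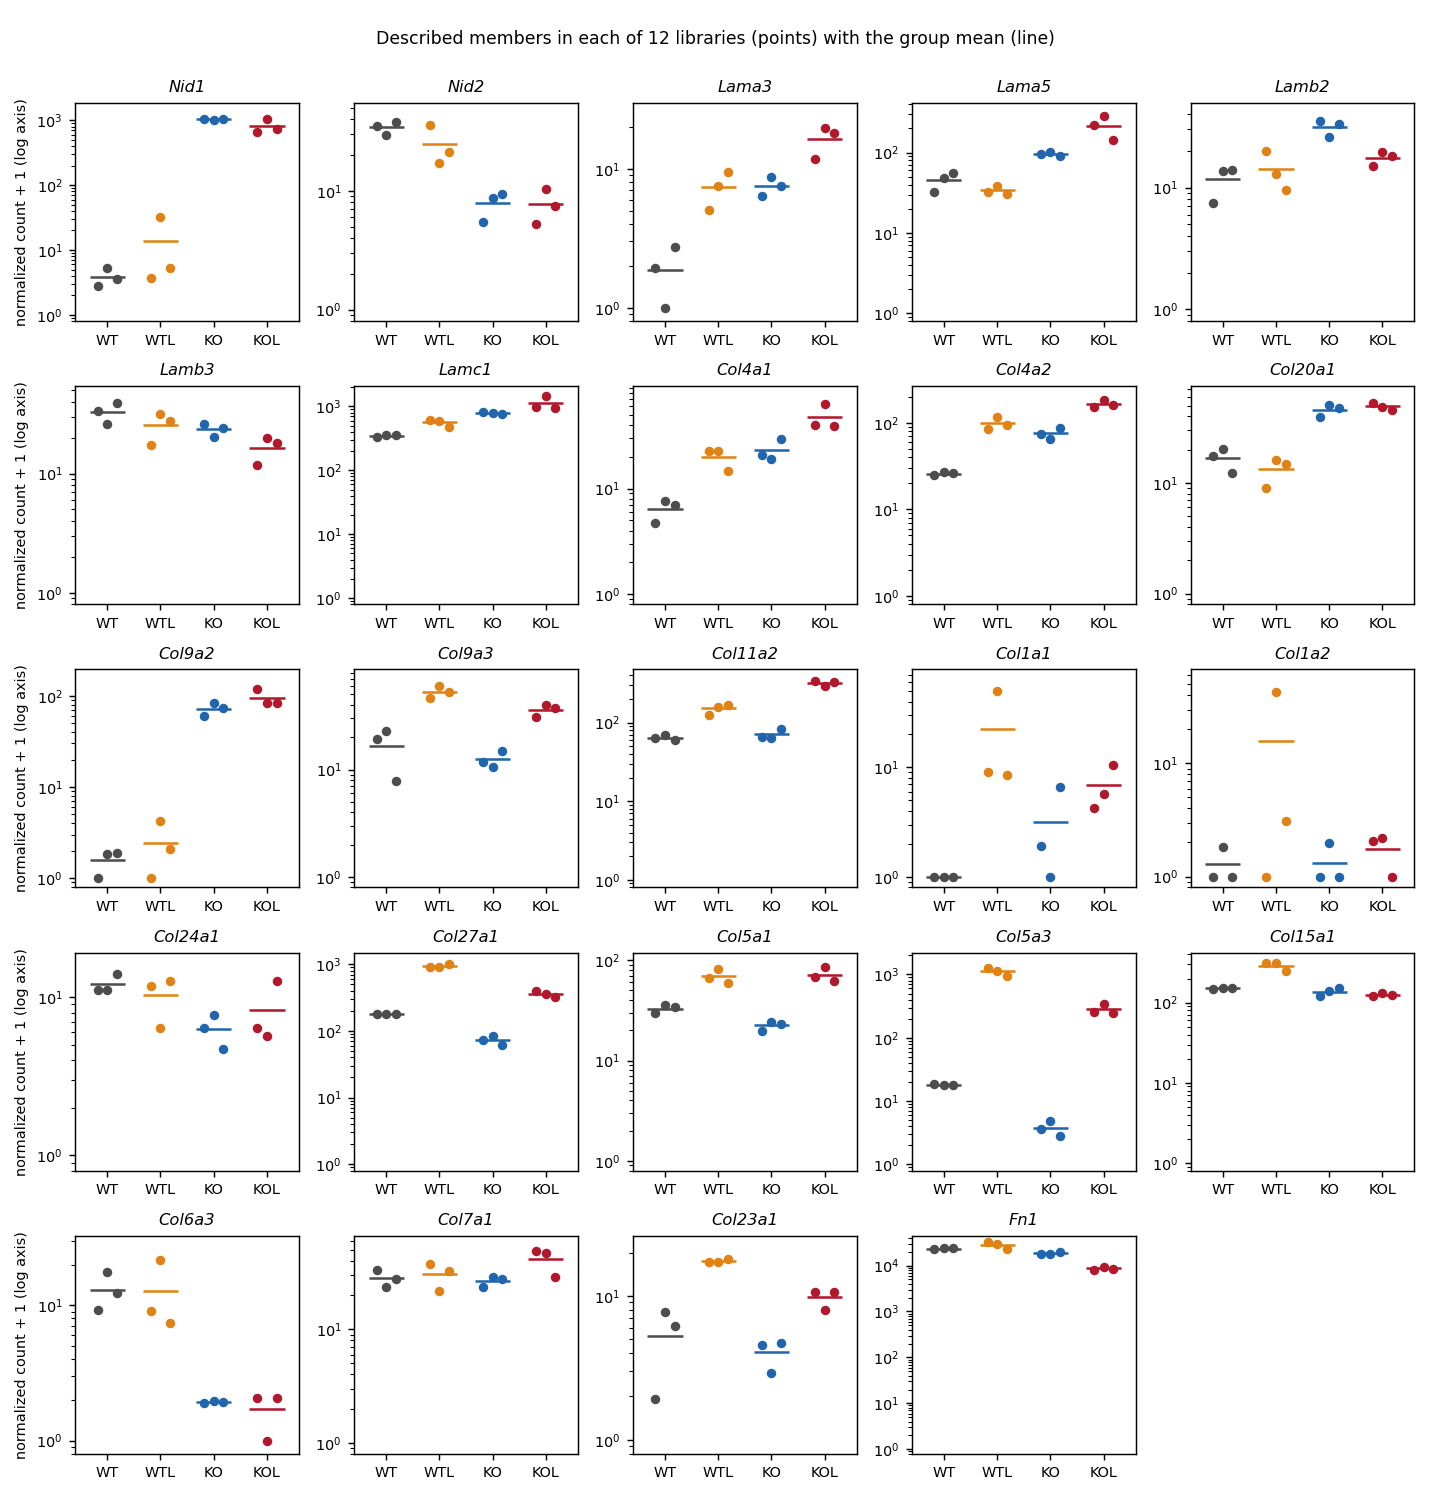
Normalized counts + 1 on a log axis for 24 of the 25 described members in the 12 libraries, with points for libraries and lines for group means (n = 3). Nid1 and Col9a2 are near 0 in WT and WTL and high in KO and KOL, and Fn1 is lowest in KOL.

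In CTCF-deficient cells without LPS, 8 of 22 members were higher and 5 were lower than in WT (of all 14008 genes tested, 17.3% were higher and 17.2% lower). The 5 lower were near the share over all genes. The members' median log2 fold change was -0.24 and that of all genes -0.01. With LPS, 8 members were higher and 6 lower in KOL than in WTL (12.5% and 12.5% of all genes), with medians of -0.05 and -0.03. Of the 8 higher members in each comparison 7 were shared, namely Nid1, Col9a2, Lamc1, Lama5, Col4a1, Col4a2 and Col20a1. Of the 5 and 6 lower members 4 were shared, namely Nid2, Col5a3, Col27a1 and Col6a3.

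LPS raised 10 of 22 members in WT and lowered none (12.6% and 9.99% of all genes), with a member median of 1.02 on the log2 scale against -0.02 for all genes. In CTCF-deficient cells LPS raised 10 and lowered 1, Fn1 (15.1% and 13.0% of all genes), with medians of 0.58 and -0.02. Of the 10 members higher with LPS in each genotype 9 were shared, among them Col5a3, Col27a1, Col11a2, Col5a1, Col9a3, Col4a1, Col4a2 and Col23a1.

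**Figure D4:**
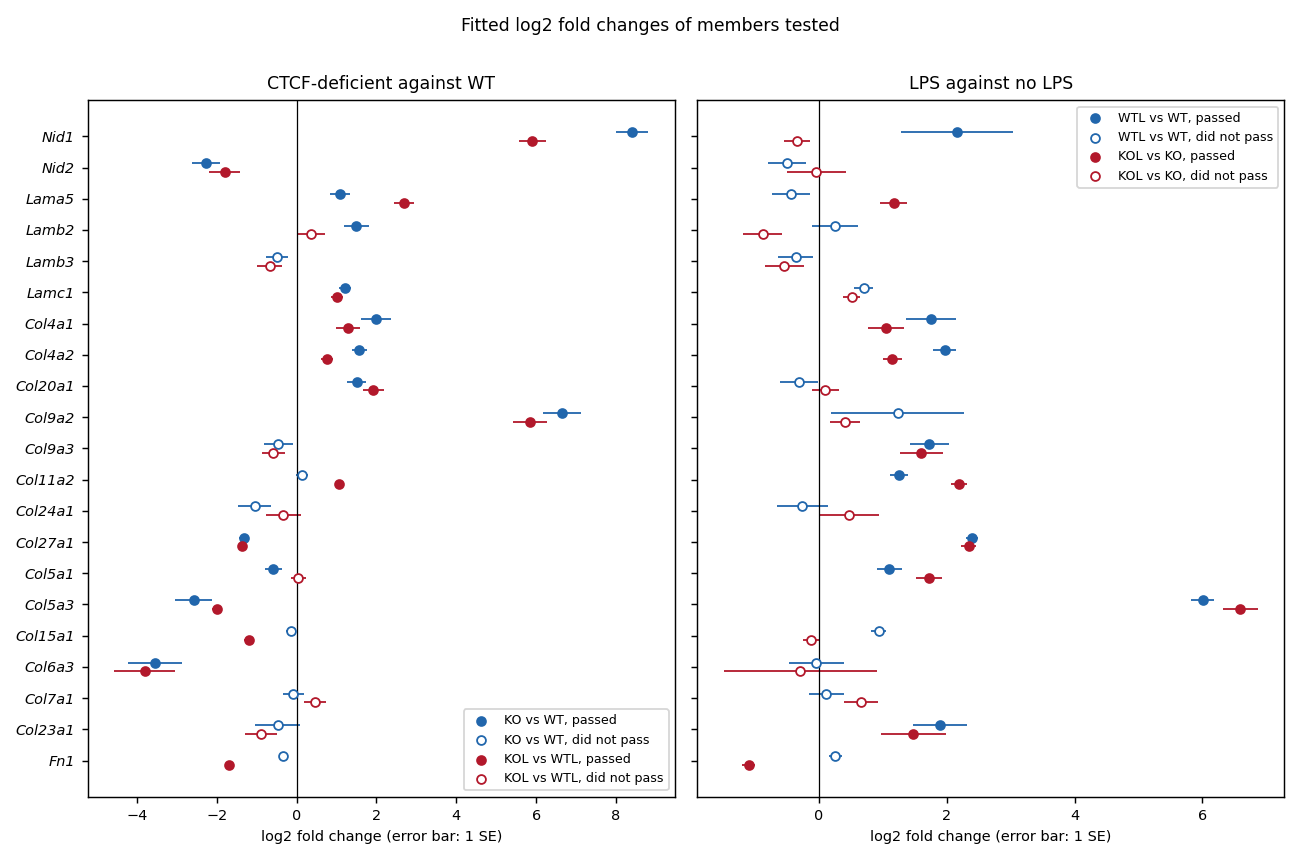
Fitted log2 fold changes (x axis, error bars 1 SE) of 21 of the 22 members tested, for CTCF-deficient against WT without and with LPS (left) and for LPS against no LPS in each genotype (right). Filled points passed the test and the fold cutoff, and Nid1 and Col9a2 lie farthest to the right on the left panel, at 8.41 and 6.66 for KO against WT.

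Nid1 and Nid2, the paralogous nidogens that link laminin to collagen IV, moved in opposite directions in CTCF-deficient cells. Nid1 had 1.84, 4.19 and 2.59 normalized counts in WT, 1050, 1012 and 1027 in KO, and 670, 1035 and 729 in KOL. The KO and KOL libraries lay far above all WT and WTL libraries, with log2 fold changes of 8.41 (SE 0.40, adjusted p = 7.89e-10, edgeR) without and 5.91 (SE 0.34, adjusted p = 6.97e-09) with LPS. Nid1 made up 28.2 to 32.3% of the summed TPM of the members other than Fn1 in KO libraries, 12.2 to 17.0% in KOL, and at most 0.778% in any WT or WTL library. In WTL it had 2.70, 31.4 and 4.25 normalized counts, of which the highest was WTL replicate 2, the library with the stromal collagen counts. LPS against no LPS in WT gave 2.16 (SE 0.87, adjusted p = 0.0461) although the groups overlapped, 0.28 (adjusted p = 0.797) without WTL replicate 2, and on log2(TPM + 1) and log2(TPM + 0.1) 0.14 (adjusted p = 0.429) and 0.59 (adjusted p = 0.255). The call was also lost without WT replicate 1 (1.86, adjusted p = 0.126), without WT replicate 2 (2.45, adjusted p = 0.0730) and without WT replicate 3 (2.01, adjusted p = 0.109). Nid1 in KOL against KO was -0.35 (SE 0.20, adjusted p = 0.140) and the groups overlapped.

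Nid2 had 34.0, 28.5 and 37.2 normalized counts in WT and 35.1, 16.2 and 20.2 in WTL, against 4.49, 7.68 and 8.34 in KO and 4.30, 9.36 and 6.41 in KOL. Every CTCF-deficient library was below every WT or WTL library. The log2 fold change was -2.27 (SE 0.35, adjusted p = 0.000106) without and -1.80 (SE 0.39, adjusted p = 0.00184) with LPS, the latter call being lost on log2(TPM + 1) (-0.33, adjusted p = 0.132). LPS left the values overlapping in both genotypes. On log2(TPM + 0.1) Nid2 was called lower in WTL than in WT (-1.019, adjusted p = 0.0296), where the median of all genes was -0.52. The gene overlaps Rtraf on the opposite strand, and whether the counting used strand was not stated.

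Nid1 starts on mouse chromosome 13 and Col9a2 on chromosome 4. The windows from 250 bases before to 50 bases after a start are shown because these 2 members were near 0 in both WT groups and high in both CTCF-deficient groups. They come from RefSeq (GRCm38.p6, the assembly of mm10), and their starts lay 51 (Nid1) and 181 bases (Col9a2) from the GENCODE M21 starts. Capitals mark matches on either strand to the motifs searched: the GC box (GGGCGG), the promoter element CCAAT, the TATA motif (TATAAA), the motif of AP-1 factors (TGANTCA), that of STAT factors (TTCNNNGAA), the NF-κB consensus and the CTCF core consensus. No match in these windows overlapped another.
Nid1, chr13:13437352-13437651, plus strand: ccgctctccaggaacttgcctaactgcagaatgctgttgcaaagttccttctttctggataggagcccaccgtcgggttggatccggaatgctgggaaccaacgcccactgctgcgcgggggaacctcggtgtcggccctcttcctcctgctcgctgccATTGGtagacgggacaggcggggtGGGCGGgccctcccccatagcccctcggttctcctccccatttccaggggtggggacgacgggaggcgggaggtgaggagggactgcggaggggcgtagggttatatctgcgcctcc
Col9a2, chr4:121039316-121039615, plus strand: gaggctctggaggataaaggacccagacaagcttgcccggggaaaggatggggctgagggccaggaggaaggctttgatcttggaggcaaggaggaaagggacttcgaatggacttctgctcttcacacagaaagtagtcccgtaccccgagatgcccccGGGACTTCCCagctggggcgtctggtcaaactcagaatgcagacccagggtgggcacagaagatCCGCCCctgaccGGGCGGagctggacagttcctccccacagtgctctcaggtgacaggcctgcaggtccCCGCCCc
The Nid1 window held 1 GC box and 1 CCAAT motif, and the Col9a2 window 3 GC boxes and 1 NF-κB consensus. Windows were found for 18 of the 25 described members, those without one including Fn1, Lamc1, Nid2, Col1a1 and Col9a3, and Lama3 was not used here. A GC box was in 12 of the 18 windows (66.7%) and in 35.7% of all 32851 promoter windows of the same length. The NF-κB consensus was in 3 windows (16.7%, all windows 4.51%), those of Col9a2, Col27a1 and Lamb3, of which the Lamb3 window, 1 of 2 for that gene, lay 94295 bases from the GENCODE start. CCAAT was in 6 (33.3%, 37.4%), and TATAAA and the STAT motif in 1 each (5.56%, with 13.6% and 8.30% of all windows). The AP-1 motif (7.81% of all windows) and the CTCF core consensus (0.557%) were in none of the 18, which says only that these letters were not in the windows.

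Collagen IX is a fibril-associated collagen of cartilage with 3 chains, and in BMDCs its chains did not move together. Col9a2 had at most 3 counts in every WT and WTL library. Its normalized counts were 59.2, 81.6 and 73.2 in KO and 117, 83.1 and 83.3 in KOL, at least 27.2-fold higher than in WT (adjusted p = 4.91e-08) and at least 27.0-fold higher than in WTL (adjusted p = 7.00e-08), as bounds against a floor of 3 counts per library. Col9a3 had 18.4, 21.8 and 6.91 normalized counts in WT and 10.8, 9.60 and 13.9 in KO, with overlap (-0.45, SE 0.36, adjusted p = 0.334). Leaving out WT replicate 3, its lowest WT library, gave -0.84 (adjusted p = 0.0338). It was higher with LPS in both genotypes, at 45.9, 58.5 and 52.1 in WTL (1.73, SE 0.30, adjusted p = 0.000184) and 30.1, 38.6 and 36.3 in KOL (1.60, SE 0.33, adjusted p = 0.000664). On log2(TPM + 1) both LPS calls were lost (0.75, under the cutoff, and 0.52, adjusted p = 0.0774), and on log2(TPM + 0.1) the second (1.10, adjusted p = 0.0569). Col9a1, the remaining chain, had no count in any library. Col9a3 overlaps Tcfl5 on the opposite strand.

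Col20a1, another fibril-associated collagen, had 16.5, 19.3 and 11.2 normalized counts in WT and 38.6, 49.9 and 46.3 in KO, with no overlap (1.51, SE 0.24, adjusted p = 0.000140). It had 8.09, 15.2 and 13.8 in WTL and 51.6, 48.0 and 44.9 in KOL (1.92, SE 0.26, adjusted p = 3.75e-05). LPS groups overlapped in both genotypes.

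Laminin genes of the widely expressed α5 and γ1 chains were higher in CTCF-deficient cells. Lamc1, the γ1 chain present in most laminins, had 329, 350 and 353 normalized counts in WT, 820, 798 and 769 in KO, 620, 589 and 473 in WTL, and 988, 1471 and 947 in KOL. The 4 groups did not overlap in the order WT, WTL, KO, KOL. CTCF loss gave 1.21 (SE 0.15, adjusted p = 1.08e-05) without and 1.02 (SE 0.14, adjusted p = 4.92e-05) with LPS, while the LPS differences of 0.70 and 0.51 (adjusted p = 0.000964 and 0.00499) stayed under the 2-fold cutoff.

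Lama5, the α5 chain, had 31.2, 47.8 and 54.5 normalized counts in WT and 31.0, 37.9 and 29.8 in WTL. It had 96.0, 99.9 and 89.9 in KO and 218, 283 and 143 in KOL, above every WT and WTL library. The log2 fold change was 1.09 (SE 0.25, adjusted p = 0.00234) without and 2.70 (SE 0.26, adjusted p = 1.03e-06) with LPS. LPS raised it in CTCF-deficient cells (1.17, SE 0.22, adjusted p = 0.000254), a difference under the 2-fold cutoff without KOL replicate 2 (0.92) and on log2(TPM + 1) (0.91), and in WT gave -0.44 (adjusted p = 0.213).

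Among the β chains that join them, Lamb1 had at most 8 counts in any library, that in WTL replicate 2. Lamb2 had 6.43, 12.6 and 13.0 normalized counts in WT and 34.1, 24.96 and 32.4 in KO, without overlap (1.498, SE 0.31, adjusted p = 0.00128), a call lost on log2(TPM + 1) (adjusted p = 0.0696) and log2(TPM + 0.1) (adjusted p = 0.0704). It had 18.9, 11.9 and 8.51 in WTL and 13.98, 18.7 and 17.1 in KOL, with overlap (0.37, adjusted p = 0.427). KOL was below KO by less than 2-fold (-0.88, adjusted p = 0.0193). That difference passed the cutoff without KO replicate 2 (-1.003), on log2(TPM + 1) (-1.287, adjusted p = 0.01085) and on log2(TPM + 0.1) (-2.59, adjusted p = 0.0113). In TPM, Lamc1 exceeded Lama5, Lamb1 and Lamb2 in every library.

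Lama3 and Lamb3 encode chains of epithelial laminin and were low in these cells. Lamb3 had 25.2 to 38.0 normalized counts in WT, 16.2 to 30.3 in WTL, 19.2 to 25.1 in KO and 10.8 to 18.7 in KOL, and passed no comparison. KOL against WTL became a call without WTL replicate 1 (-0.87, adjusted p = 0.0357). Lamb3 overlaps Hsd11b1 and G0s2 on the opposite strand. Lama3, which was too low for the fit, had 0 to 2 expected counts in WT, 3 to 8 in WTL, 6 to 8 in KO and 10 to 16 in KOL.

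Col4a1 and Col4a2, which encode the chains of the main basement membrane collagen, were higher both in CTCF-deficient cells and with LPS. Col4a2 had 23.9, 26.0 and 25.1 normalized counts in WT, 83.6, 116 and 93.6 in WTL, 74.5, 63.4 and 86.2 in KO and 154, 184 and 160 in KOL. The WT libraries were the lowest and the KOL libraries the highest, without overlap. CTCF loss gave 1.57 (SE 0.18, adjusted p = 6.48e-06) without and 0.76 (SE 0.15, adjusted p = 0.000817) with LPS, and LPS gave 1.97 (SE 0.18, adjusted p = 3.08e-07) in WT and 1.15 (SE 0.15, adjusted p = 9.67e-06) in CTCF-deficient cells. On log2(TPM + 1), 3 of these 4 values fell under their cutoffs, at 0.56 for CTCF loss with LPS, 0.58 for LPS in WT and 0.41 for LPS in CTCF-deficient cells, which was 0.59 (adjusted p = 0.0826) on log2(TPM + 0.1).

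Col4a1 had 3.67, 6.71 and 6.05 normalized counts in WT, 21.6, 21.7 and 13.8 in WTL, 19.7, 18.2 and 28.7 in KO and 38.7, 62.0 and 38.4 in KOL. Its order was the same, with WT lowest and KOL highest. The log2 fold changes for CTCF loss were 1.99 (SE 0.37, adjusted p = 0.000485) without and 1.29 (SE 0.29, adjusted p = 0.00261) with LPS. Those for LPS were 1.75 (SE 0.39, adjusted p = 0.00126) in WT and 1.05 (SE 0.28, adjusted p = 0.00406) in CTCF-deficient cells, the latter under the 2-fold cutoff without KO replicate 1 (0.97), KO replicate 2 (0.93) or KOL replicate 2 (0.79). On log2(TPM + 1) and log2(TPM + 0.1) the call for CTCF loss with LPS was lost (0.38 and 0.94, adjusted p = 0.0519 and 0.0539), as were those for LPS in WT (0.25, adjusted p = 0.139, and 0.88, under the cutoff) and in CTCF-deficient cells (0.13 and 0.32, adjusted p = 0.443 and 0.429). In TPM, Col4a2 exceeded Col4a1 in all 12 libraries, with ratios of 1.35 to 4.67. The other collagen IV genes (Col4a3 to Col4a6) did not reach 10 counts in any group.

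Both genes lie head to head on chromosome 8, and their annotated starts, at 11312826 for Col4a1 on the minus strand and at 11312805 for Col4a2 on the plus strand, are 21 bases apart with the transcripts overlapping at their ends. The window of Col4a2 is shown for this reason, with capitals for the 78 bases (chr8:11312777-11312854) that it shares with the window of Col4a1.
Col4a2, chr8:11312555-11312854, plus strand: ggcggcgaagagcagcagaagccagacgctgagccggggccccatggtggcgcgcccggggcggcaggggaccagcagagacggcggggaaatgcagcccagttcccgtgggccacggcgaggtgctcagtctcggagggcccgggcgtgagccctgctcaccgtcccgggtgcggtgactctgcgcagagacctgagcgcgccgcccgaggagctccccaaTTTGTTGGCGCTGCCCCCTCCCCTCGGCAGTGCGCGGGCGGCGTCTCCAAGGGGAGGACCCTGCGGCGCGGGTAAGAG
The Col4a2 window held 3 GC boxes and that of Col4a1 held 1. Their GC content was 73.7% and 74.0%, against a median of 61.3% over the 18 windows and 52.7% over all promoter windows.

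Col5a3 and Col27a1, fibrillar collagen genes, combined a large rise with LPS and lower values in CTCF-deficient cells. Col5a3, a minor chain of collagen V, had 17.5, 16.8 and 17.3 normalized counts in WT and 1256, 1131 and 954 in WTL. In CTCF-deficient cells it had 2.69, 3.84 and 1.85 without LPS and 254, 346 and 241 with LPS, so the 4 groups did not overlap. The LPS differences were 6.01 (SE 0.18, adjusted p = 1.70e-12) in WT and 6.59 (SE 0.27, adjusted p = 4.82e-11) in CTCF-deficient cells. Those for CTCF loss were -2.57 (SE 0.46, adjusted p = 0.000416, and -0.30, adjusted p = 0.0795, on log2(TPM + 1)) and -1.99 (SE 0.13, adjusted p = 1.74e-08), and the difference between them did not pass the interaction test (0.58, SE 0.51, adjusted p = 0.483). The chains that pair with it differed: Col5a2 had at most 2 counts outside WTL replicate 2, and Col5a1 had 28.5, 34.4 and 32.8 normalized counts in WT and 66.1, 81.2 and 58.5 in WTL.

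Col27a1, a fibrillar collagen of cartilage, had 177, 180 and 177 normalized counts in WT, 896, 909 and 1004 in WTL, 70.9, 81.6 and 61.1 in KO and 396, 362 and 326 in KOL. All 4 groups were separate. LPS gave 2.39 (SE 0.09, adjusted p = 2.92e-11) and 2.34 (SE 0.11, adjusted p = 1.85e-10), and CTCF loss -1.32 (SE 0.12, adjusted p = 3.83e-07) and -1.38 (SE 0.09, adjusted p = 2.23e-08).

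The start windows of both genes are shown as those of the fibrillar collagens with the largest LPS differences, with motif matches in capitals as for Nid1. The RefSeq start of Col27a1 lay 1408 bases from that of GENCODE.
Col5a3, chr9:20815018-20815317, minus strand: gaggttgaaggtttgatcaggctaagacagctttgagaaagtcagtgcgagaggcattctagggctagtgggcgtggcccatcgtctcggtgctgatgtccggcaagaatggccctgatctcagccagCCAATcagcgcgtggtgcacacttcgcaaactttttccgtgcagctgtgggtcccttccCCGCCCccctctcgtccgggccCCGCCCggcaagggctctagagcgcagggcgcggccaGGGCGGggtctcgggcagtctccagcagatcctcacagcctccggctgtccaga
Col27a1, chr4:63215162-63215461, plus strand: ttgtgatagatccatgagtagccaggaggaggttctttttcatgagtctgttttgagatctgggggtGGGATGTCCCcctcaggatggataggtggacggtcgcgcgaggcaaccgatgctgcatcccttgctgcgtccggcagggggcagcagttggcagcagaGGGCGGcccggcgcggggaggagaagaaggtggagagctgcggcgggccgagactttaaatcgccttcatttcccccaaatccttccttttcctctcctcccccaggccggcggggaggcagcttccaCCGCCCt
The Col5a3 window held 3 GC boxes and 1 CCAAT motif, and the Col27a1 window 2 GC boxes and 1 NF-κB consensus. Of the genes in the fit, Rdh8 begins 3436 bases from Col5a3 in the opposite orientation and Olfm2 lies 23701 bases away on the other side. Rdh8, a retinol dehydrogenase gene, was at 0 in WT and KO and at 17.7 ± 1.78 and 4.78 ± 2.70 normalized counts in WTL and KOL. Olfm2, an olfactomedin gene, had 0.865 ± 0.840, 17.0 ± 3.94, 3.71 ± 1.62 and 26.2 ± 3.23 in WT, WTL, KO and KOL, and both were called higher with LPS in WT.

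Over the members called in a comparison, the nearest non-overlapping tested genes on either side were called in the same direction 5 times and in the opposite direction 7 times of 26 for KO against WT, where 34.5% of all genes were called. The numbers were 4 and 3 of 28 for KOL against WTL (25.01%) and 7 and 2 of 20 for WTL against WT (22.6%), with Irs2 and Rab20 each counted for both Col4a1 and Col4a2. Irs2 was called lower in KO than in WT and so made up 2 of the 7 opposite calls. Rab20 was called higher in WTL than in WT and so made up 2 of the 7 calls in the same direction there.

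Col5a1, which encodes the main chain of collagen V, had 18.8, 23.0 and 22.2 normalized counts in KO and 67.7, 84.2 and 60.9 in KOL. LPS raised it by 1.10 (SE 0.19, adjusted p = 0.000201) in WT, under the 2-fold cutoff without WT replicate 1 (0.95) or WTL replicate 2 (0.96), and by 1.72 (SE 0.20, adjusted p = 3.87e-06) in CTCF-deficient cells. On log2(TPM + 1) and log2(TPM + 0.1) these LPS differences were 0.08 and 0.19 in WT (adjusted p = 0.531 and 0.529) and 0.28 and 0.62 in CTCF-deficient cells, under the cutoff. KO was below WT by 0.58 (SE 0.22, adjusted p = 0.0433, no overlap), but the call was lost by DESeq2 (adjusted p = 0.0980), without a filter on low counts (adjusted p = 0.108), on both TPM scales (-0.11 and -0.24, adjusted p = 0.451 and 0.489) and without WT replicate 2, WT replicate 3 or any KO replicate (-0.64 to -0.49, adjusted p up to 0.140). KOL and WTL overlapped (0.04, adjusted p = 0.865).

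Col11a2, a chain of the cartilage collagen XI, had 63.4, 67.9 and 58.8 normalized counts in WT and 64.6, 63.4 and 80.6 in KO, which overlapped (0.13, SE 0.15, adjusted p = 0.499). With LPS it had 125, 157 and 168 in WTL and 333, 294 and 326 in KOL, without overlap (1.07, SE 0.12, adjusted p = 5.73e-06). The LPS difference was 1.25 (SE 0.14, adjusted p = 2.30e-06) in WT and 2.19 (SE 0.13, adjusted p = 2.28e-09) in CTCF-deficient cells. The call in WT was lost on log2(TPM + 1) (0.18, adjusted p = 0.305) and log2(TPM + 0.1) (0.24, adjusted p = 0.342), and on log2(TPM + 1) KOL against WTL (0.57) and KOL against KO (0.93) were under their cutoffs. Col24a1, a further fibrillar collagen, had 3.71 to 13.0 normalized counts over all libraries and passed no comparison with all 12 libraries in the fit, although with the WT and KO libraries alone it was lower in KO (-1.06, adjusted p = 0.0240).

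Col15a1, a basement membrane-associated collagen whose terminal fragment is known as restin, had 148, 150 and 153 normalized counts in WT and 118, 138 and 153 in KO, which overlapped (-0.14, adjusted p = 0.359). It had 309, 309 and 247 in WTL and 122, 130 and 124 in KOL, without overlap (-1.20, SE 0.12, adjusted p = 1.32e-06). The LPS difference in WT of 0.93 (SE 0.11, adjusted p = 5.18e-06) stayed under the 2-fold cutoff, which it passed without WTL replicate 3 (1.04), and KOL against KO was -0.13 (adjusted p = 0.377).

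Col6a3, a chain of the beaded-filament collagen VI, had 8.27, 16.8 and 11.2 normalized counts in WT and 8.09, 20.6 and 6.38 in WTL, and at most 1 count in every KO and KOL library. It was at least 4.34-fold lower in KO than in WT (adjusted p = 0.000611) and at least 3.53-fold lower in KOL than in WTL (adjusted p = 0.000996). The latter call was lost on log2(TPM + 1) (-0.14, adjusted p = 0.229) and log2(TPM + 0.1) (-0.89, adjusted p = 0.0516). On log2(TPM + 0.1) Col6a3 was also called lower in WTL than in WT (-1.122, adjusted p = 0.00885), where the median of all genes was -0.52. The partner chain gene Col6a2 had at most 4 counts in any library. Col23a1, a transmembrane collagen, had 0.918 to 6.71 normalized counts in WT and 16.2, 16.3 and 17.0 in WTL (1.89, SE 0.43, adjusted p = 0.00149, and 0.17 and 0.84, under the cutoff, on log2(TPM + 1) and log2(TPM + 0.1)). It had 1.92 to 3.71 in KO and 7.02 to 9.68 in KOL (1.47, SE 0.51, adjusted p = 0.0194), a call lost by DESeq2 (adjusted p = 0.0555), on both TPM scales (0.07 and 0.44, adjusted p = 0.336 and 0.171) and without KO replicate 2 (1.24), KOL replicate 1 (1.402) or KOL replicate 3 (1.409). Col7a1, the anchoring-fibril collagen, had 20.6 to 48.4 normalized counts over all libraries and was called in no comparison of the main fit. KOL against KO was 0.66 (SE 0.27, adjusted p = 0.0408), under the 2-fold cutoff and with overlap, and became a call on log2(TPM + 0.1) (1.145, adjusted p = 0.0277).

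Fn1 had 22475, 23608 and 23851 normalized counts in WT, 18013, 18082 and 19409 in KO, 32037, 28847 and 22670 in WTL, and 8074, 9447 and 8414 in KOL. KO lay below WT without overlap, by 0.33 on the log2 scale (SE 0.11, adjusted p = 0.0188), which was under the 1.3-fold cutoff. It passed the cutoff without WT replicate 1 (-0.40) and on log2(TPM + 1) (-0.53, adjusted p = 0.000168). KOL lay below WTL by 1.69 (SE 0.11, adjusted p = 1.84e-08) and below KO by 1.10 (SE 0.11, adjusted p = 4.66e-07), without overlap. WTL and WT overlapped (0.26, SE 0.10, adjusted p = 0.0473, under the cutoff), and that difference was -0.18 on log2(TPM + 1), a scale on which the median of all genes was -0.41. The 3 genes whose normalized counts followed Fn1 most closely over the 12 libraries were Cant1 (Pearson r = 0.978), Hjurp (0.975) and Fam20c (0.968), which is a description over libraries that share 4 groups.

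The effect of CTCF loss differed with and without LPS for 5 of 22 members by the interaction test, higher with LPS for 2 and lower for 3 (8.70% and 8.75% of all genes). The 2 higher were near the share over all genes. The difference was 1.61 (SE 0.36, adjusted p = 0.00763) for Lama5 and 0.94 (SE 0.19, adjusted p = 0.00397) for Col11a2. It was -1.35 (SE 0.15, adjusted p = 3.75e-05) for Fn1, -1.06 (SE 0.17, adjusted p = 0.000611) for Col15a1 and -0.82 (SE 0.24, adjusted p = 0.0280) for Col4a2, whose call was lost without any WT replicate, WTL replicate 2, KO replicates 1 or 3, or KOL replicates 1 or 3 (-0.82 to -0.68, adjusted p up to 0.0901). On log2(TPM + 0.1) the calls of Col11a2 (1.02, adjusted p = 0.0545), Col15a1 (-1.16, adjusted p = 0.0541) and Col4a2 (-0.59, adjusted p = 0.395) were lost, the last also on log2(TPM + 1) (-0.17, adjusted p = 0.697). Nid1 had the most negative value, -2.501 (SE 0.90, adjusted p = 0.0713), and did not pass. Without WTL replicate 1, WTL replicate 3 or KOL replicate 2 it did (-2.96 to -2.72). It also passed without a filter on low counts (-2.49, adjusted p = 1.75e-06) and on log2(TPM + 1) (-0.91, adjusted p = 0.0194). Without WTL replicate 2 it was -0.63 (adjusted p = 0.699).

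**Figure D5:**
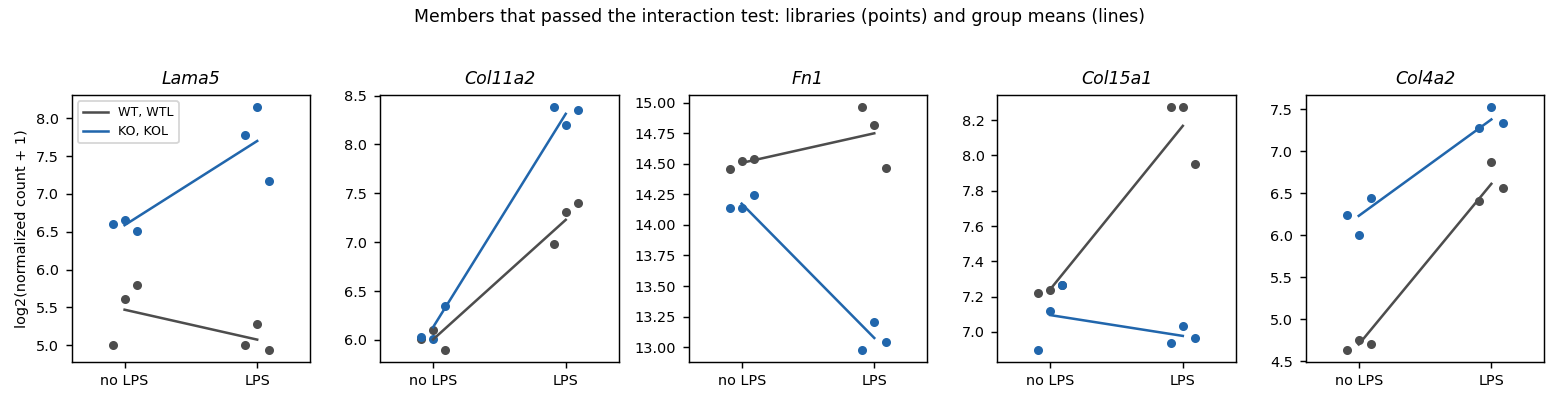
Log2(normalized count + 1) without and with LPS for the 5 members that passed the interaction test, with points for libraries and lines between group means in WT (grey) and CTCF-deficient (blue) cells. In Lama5 and Col11a2 the CTCF-deficient line rises more steeply, in Fn1 it falls, in Col15a1 the lines part with LPS, and in Col4a2 they approach each other.

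Among genes that make, cross-link and export collagen, P4ha1 and Bmp1 were higher and Tgm2 and Lox lower in KO than in WT. Of 34 listed genes 22 were tested, with 7 higher and 4 lower in KO than in WT (17.3% and 17.2% of all genes), 5 and 4 in KOL against WTL (12.5% and 12.5%), 6 and 0 in WTL against WT (12.6% and 9.99%), and 6 and 1 in KOL against KO (15.1% and 13.0%). The 4 lower in KO were near the share over all genes. P4ha1, a prolyl 4-hydroxylase subunit that stabilises collagen helices, had 640 ± 78.8 normalized counts in WT and 3261 ± 109 in KO (2.35, adjusted p = 1.32e-09). Tgm2, a transglutaminase that cross-links matrix, had 1387 ± 104 and 240 ± 11.2 (-2.53, adjusted p = 3.53e-10). Bmp1, which trims procollagens, rose from 44.7 ± 2.65 in WT to 153 ± 13.5 in KO (1.77, adjusted p = 2.55e-07) and to 262 ± 41.9 in WTL. Lox, the collagen cross-linking lysyl oxidase, had 8.13 ± 1.19 in WT, 2.496 ± 1.16 in KO (-1.67, adjusted p = 0.0418) and 400 ± 137 in WTL (5.59, adjusted p = 3.98e-10). The lower value of Lox in KO rests on few reads in both groups.

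Of 32 receptors of collagen, laminin and fibronectin 24 were tested, with 7 higher and 6 lower in KO against WT (17.3% and 17.2% of all genes), 3 and 7 in KOL against WTL (12.5% and 12.5%), 9 and 1 in WTL against WT (12.6% and 9.99%), and 7 and 2 in KOL against KO (15.1% and 13.0%). The 3 higher in KOL than in WTL equalled the share over all genes. Bcam, a receptor for the laminin α5 chain, had 53.3 ± 3.99 normalized counts in WT and 544 ± 46.5 in KO (3.35, adjusted p = 1.79e-10). Itgb8, an integrin β chain, rose in KO (39.3 ± 2.09 to 111 ± 8.41) and with LPS in WT (1153 ± 167), and Itgb5, another β chain, fell in KO (497 ± 38.8 to 166 ± 16.4). Sdc4, a syndecan that binds fibronectin, fell in KO (855 ± 50.8 to 362 ± 27.4) and rose with LPS in WT (7860 ± 614).

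Of 47 other matrix glycoprotein genes 19 were tested, with 7 higher and 4 lower in KO against WT (17.3% and 17.2% of all genes), 6 and 4 in KOL against WTL (12.5% and 12.5%), 6 and 1 in WTL against WT (12.6% and 9.99%), and 9 and 2 in KOL against KO (15.1% and 13.0%). The 4 lower in KO and the 2 lower in KOL than in KO were near the shares over all genes. Ntn1, the laminin-related guidance molecule netrin 1, had 1.14 ± 0.984 normalized counts in WT and 294 ± 4.60 in KO (7.84, adjusted p = 2.09e-11). With WT near 0, the size of this fold is uncertain. Thbs1 (thrombospondin 1) had 905 ± 46.7 and 226 ± 23.95 (-2.00, adjusted p = 3.44e-09), and Spp1 (osteopontin) 6255 ± 82.6 and 1757 ± 33.3 (-1.83, adjusted p = 8.60e-10). Tnc (tenascin C) had 5.20 ± 2.11 in WT, 22.2 ± 5.74 in KO (2.06, adjusted p = 0.00447) and 68.2 ± 19.9 in WTL. Agrn (agrin), which binds laminin, rose with LPS in WT from 379 ± 19.6 to 2696 ± 114 (2.83, adjusted p = 6.29e-12). The changes named for these 3 lists all passed the test, with adjusted p at most 0.0418, and Spp1 is also among the osteoblast markers above.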

How the data were processed

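RNA-seq libraries of 12 cultures were grouped by their labels (4 groups of 3). Per the paper's methods, adapters were removed with Trim Galore and read pairs were mapped by STAR (2.5.1 in the submitters' processing notes) to the mm10 genome. The authors deposited the RSEM output of each library, with 55335 genes: an expected count, in which a read fitting several genes is split among them, a TPM, which carries no depth, and the length and effective length in bases. The methods name a stranded poly(A) kit and the labels depletion of ribosomal RNA. The strand setting of RSEM is not given in the sources used here, so overlapping genes are uncertain.

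Expected counts were rounded and normalized by TMM, and genes were filtered by filterByExpr, which left 14008. edgeR 4.0.16 (R 4.3.3) quasi-likelihood tests were run on all 12 libraries without covariates and p-values were corrected by Benjamini-Hochberg over the 14008 genes. Fold cutoffs were 1.3, 1.5 and 2 and none for the interaction. Members were grouped by role, every described member but 1, not reported here, was named, and per gene list the 4 largest called changes in KO against WT and 2 in WTL against WT with at least 100 normalized counts on average were named. The members and lists were chosen with earlier results of these data known. Alternatives were DESeq2 1.42.0, its size factors in edgeR, other filters, the 6 libraries of a comparison alone, a replicate block, no fold cutoff, limma 3.58.1 for log2(TPM) with pseudocounts of 1 or 0.1, and leaving out each library. The scripts were tested on simulated counts. Positions are those of GENCODE M21. Bounds use a floor of 3 counts, cover counting error only, and the smallest folds they allow are given. No pair of replicates held identical values, and none differed by sampling noise alone (chi-square per degree of freedom 1.69 to 86.1). The spread differed between groups, with 1.69 to 1.91 in KO, 3.33 to 4.75 in WT and 8.78 to 31.4 in KOL. In WTL the pairs with replicate 2 had 86.1 and 80.4, and the remaining pair 31.1. The fit shared its estimate of the spread between the 4 groups. Python 3.11.15, numpy 2.4.6, pandas 2.3.3 and matplotlib 3.10.9 were used.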

Additional observations from a re-analysis of the deposited data

Results flagged for a closer look

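The effect of CTCF loss differed between unstimulated and LPS-stimulated cells for 5 of 22 members, by the interaction term of the edgeR fit. It was higher with LPS for 2 and lower for 3, against 8.70% and 8.75% of all genes, and the 2 higher were near that share. The log2 difference was 1.61 for Lama5, where KO exceeded WT by 1.09 and KOL exceeded WTL by 2.70. For Col11a2 it was 0.94, with 0.13 without and 1.07 with LPS. Fn1 had -1.35, with -0.33 and -1.69, and Col15a1 had -1.06, with -0.14 and -1.20. Col4a2 had -0.82, with 1.57 and 0.76, and its adjusted p of 0.0280 rose above the threshold in 8 of the 12 fits that each left out a library.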

How the results depend on the processing

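The number of members called, of 22 tested, was 13 for KO against WT, 14 for KOL against WTL, 10 for WTL against WT, 11 for KOL against KO and 5 for the interaction. Of all genes, 17.3% and 17.2%, 12.5% and 12.5%, 12.6% and 9.99%, 15.1% and 13.0%, and 8.70% and 8.75% were called higher and lower. On log2(TPM + 1) in limma, which compresses low values, the number of members called was 9 for KOL against WTL, 2 for WTL against WT and 4 for KOL against KO. On log2(TPM + 0.1) that number was 2 for the interaction. Without a filter on low counts 18 members were called for WTL against WT. On the TPM scales the median of all genes moved by -0.39 and -0.50 for WTL against WT and by -0.33 and -0.44 for KOL against KO. Leaving out each library in turn gave 13 to 15, 14 to 15, 9 to 12, 9 to 12 and 4 to 7 called members. Of the 53 called values of members, 26 kept their direction and their call under every alternative that gave them a value, and 27 lost the call under at least 1, with 25 lost on log2(TPM + 1). The filter on a mean of 10 counts gave a value for 47 of the 53, and the fit of 1 comparison's libraries for 42 of the 48 outside the interaction. DESeq2 lost 2. The only reversal was Col5a3 in the interaction, from 0.58, which had not passed, to -1.42 on log2(TPM + 1). The causes were not tested.

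The labels number the replicates 1 to 3 in each group but do not say that equal numbers shared an animal or day. Deviations of same-numbered libraries correlated by -0.286 to 0.112, and 1 of 18 pairs exceeded 0.1, so the numbers were not taken as pairing. With the replicate number as a block the counts of called members were 13, 14, 10, 11 and 5, and no called value was lost.

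Members near 10 counts, such as Lamb2, Col6a3, Col23a1 and Col24a1, rest on few reads, and 3 libraries per group limit the precision of every value.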
